A study of Homo sapiens with 5 samples.

Results

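The genes described here are 33 genes of the p53 pathway, chosen by name from a fixed list of classic p53 target and feedback genes. They were found in the RNA table by their RefSeq accessions, and all 33 were found, among 22889 gene symbols in that table. The series asked what the lysine demethylase LSD1 (gene KDM1A) does in androgen signalling, and used LNCaP and VCaP, established human lines of prostate cancer cells. LNCaP cells transfected with a control siRNA and LNCaP cells transfected with an siRNA against LSD1 gave 1 RNA-seq library each. Untransfected LNCaP gave 1 ChIP-seq peak list for LSD1 and 1 for H3T6ph, histone H3 phosphorylated at threonine 6, and untransfected VCaP gave 1 list for LSD1. All cells were hormone-starved for 3 days in charcoal-stripped serum before a stimulus that the labels do not name. The labels also do not say whether these samples were harvested before or after that stimulus. No group has a replicate, so the values carry no replicate error and no difference was tested. The p and q values quoted are those of the authors' deposited table.

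The transcription factor p53 is activated by DNA damage and other stress. It induces genes that stop the cell cycle, repair DNA, adjust metabolism or kill the cell, and also MDM2 and other genes that switch p53 off again. LSD1 has been described as a demethylase of p53 itself as well as of histones.

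p53 binds DNA at a response element made of a pair of similar sequences of 10 bases each. The sequences below are shown because they are the closest matches to that element at these genes. A match describes letters and does not show that p53 binds there. RefSeq promoter windows (GRCh38.p14, 250 bases before to 50 after a start site) were found for 27 of the 33 genes, 42 windows in all. There was none for TP53INP1, TNFRSF10A, TNFRSF10B, GADD45A, PHLDA3 and RRM2B. The windows were searched for a p53 response element with its pair of units directly adjacent, keeping the fixed C and G of each CNNG core and allowing at most 3 mismatches over 20 bases. The element reads the same way on both strands. A match was found for 6 of the 27 genes (22.2%), against 1.37% of all 27305 genes with a window. Counted by window, 7 of the 42 had a match (16.7%), against 1.12% of all 35116 windows. The genes were chosen as p53 target and feedback genes, so this contrast is no new support for that label. The 3-mismatch limit was set after seeing the matches. Capitals mark bases that fit the element and small letters mark mismatches.
DDB2: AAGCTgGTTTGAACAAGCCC
FAS: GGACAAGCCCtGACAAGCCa
MDM2: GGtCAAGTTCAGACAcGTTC
AEN: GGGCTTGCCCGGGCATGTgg
SESN1: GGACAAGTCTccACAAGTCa
FDXR: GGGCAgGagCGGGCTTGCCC

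The DDB2 match had the fewest mismatches of the 6, with 1, and spans the start site itself, from 5 bases before it to 14 bases after it. FAS, MDM2 and AEN had 2 mismatches each, and SESN1 and FDXR 3 each. The MDM2 match is in 2 of the 4 MDM2 windows, those of the downstream start sites. In the window printed it lies 75 to 94 bases before the start site. MDM2 is known to have an internal promoter that p53 drives. The complete windows of DDB2 and MDM2 follow, with the matched 20 bases in capitals. The DDB2 window is chr11:47214724-47215023 on the plus strand and the MDM2 window is chr12:68808767-68809066 on the plus strand, both GRCh38.p14.
DDB2 window: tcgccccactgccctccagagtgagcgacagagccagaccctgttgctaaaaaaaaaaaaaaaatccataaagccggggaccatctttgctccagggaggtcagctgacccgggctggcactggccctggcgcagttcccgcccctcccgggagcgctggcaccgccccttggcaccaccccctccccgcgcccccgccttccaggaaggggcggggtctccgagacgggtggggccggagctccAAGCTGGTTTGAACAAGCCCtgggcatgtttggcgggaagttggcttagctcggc
MDM2 window: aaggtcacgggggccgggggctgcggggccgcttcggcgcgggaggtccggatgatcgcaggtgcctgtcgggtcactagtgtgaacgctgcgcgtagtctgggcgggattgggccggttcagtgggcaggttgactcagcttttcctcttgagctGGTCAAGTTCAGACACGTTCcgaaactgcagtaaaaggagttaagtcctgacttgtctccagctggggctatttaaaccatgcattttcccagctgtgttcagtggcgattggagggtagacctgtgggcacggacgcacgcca

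KDM1A RNA, the siRNA target, stood at 37.0 FPKM in the control library and at 6.87 FPKM in the LSD1 siRNA library, 18.6% of control. FPKM is fragments per kilobase of transcript, scaled to the library's depth, here summed over the accessions of a gene. Fold changes are log2((LSD1 siRNA + 1)/(control siRNA + 1)). They understate the change of low genes. Steps of 1 read in the low values put the depth near 33.02 M and 25.5 M fragments, at which a transcript of 2 kb at 1 FPKM rests on about 59.3 and 45.8 fragments. All 10 luminal prostate markers were at 1 FPKM or more in both libraries, at 15.6 to 2474 FPKM with control, and each was lower with LSD1 siRNA. Their summed level was 5329 FPKM with control and 4177 FPKM with LSD1 siRNA. Of 15 basal, fibroblast, immune and endothelial markers, 14 stayed under 1 FPKM and the other, LYZ, was at 1.68 and 1.76 FPKM. These 15 summed to 2.71 FPKM with control and 3.17 FPKM with LSD1 siRNA, and 3 of them (COL1A2, CD3E and CDH5) were listed at 0 in both. The part of these shifts in the values below was not tested. In bulk RNA, fewer cells of a type and less RNA per cell cannot be told apart.

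The p53 pathway genes lay within 1.5-fold of their control level after LSD1 siRNA, with 1 exception. All 33 were at 1 FPKM or more in both libraries. Of these, 21 had a higher and 12 a lower value with LSD1 siRNA, beside 47.4% higher and 52.6% lower among all 12916 genes at 1 FPKM or more, and 47.1% higher among the protein-coding ones. Their median log2 fold change was 0.10, beside -0.01 for all genes. A fixed size of 1.5-fold was passed upward by none, beside 1.91% of all genes and 1.04% of protein-coding genes. It was passed downward by 1 gene, TP53INP1, beside 2.41% of all genes and 1.18% of protein-coding genes. None passed 2-fold, beside 1.97% of all genes, and the authors' deposited table called none of their 77 accessions, beside 0.906% of all genes with a called accession. In the authors' deposited table, 3 of the 57 accessions with a completed test had an unadjusted p under 0.05 (5.26%), against 6.34% of all accessions with one. The counts past a fold are thus near the background, and the lowest q among their accessions in the authors' deposited table was 0.506.

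**Figure D1:**
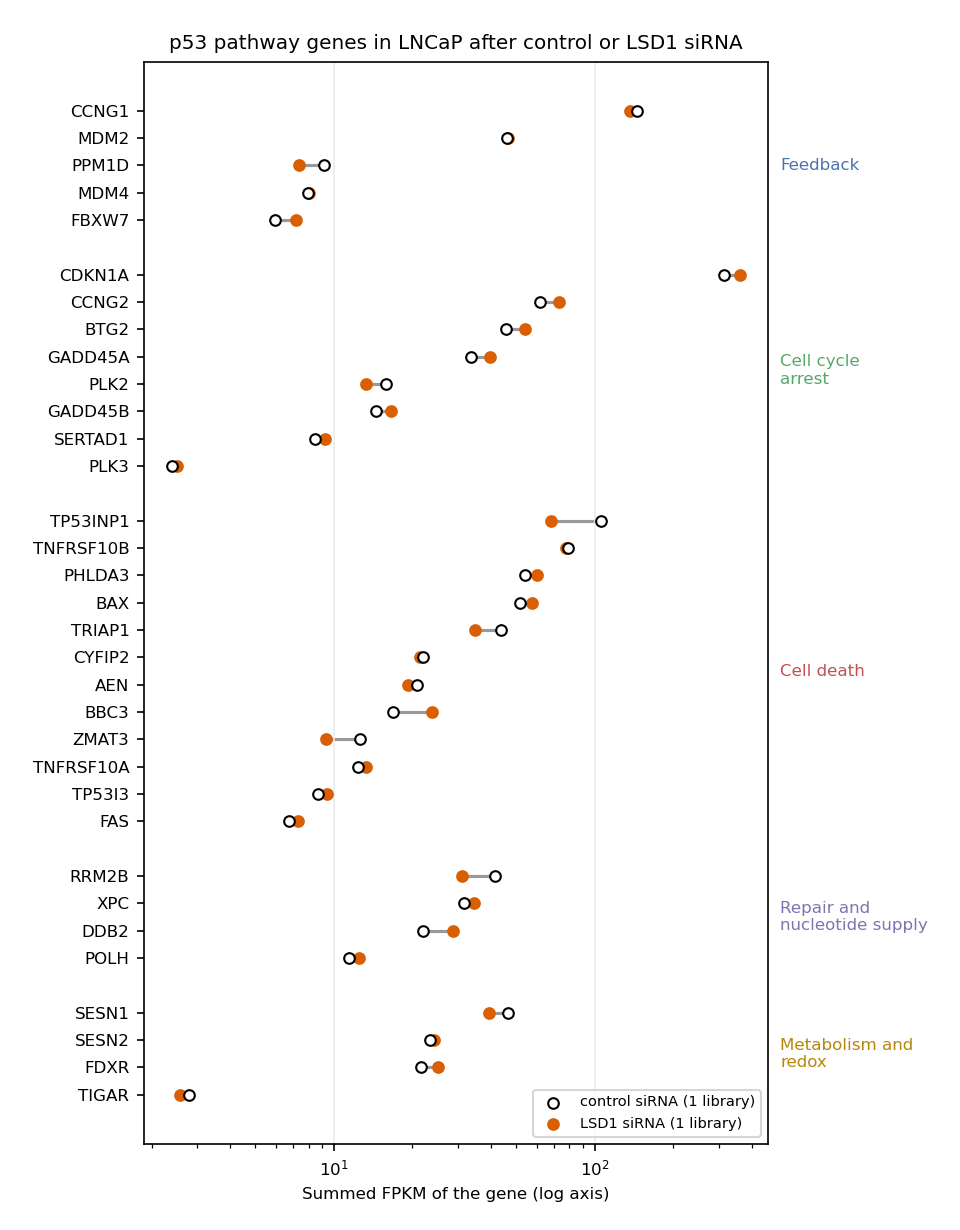
Summed FPKM of each p53 pathway gene in LNCaP on a log axis, grouped by role, with open circles for the control siRNA library and filled circles for the LSD1 siRNA library (1 library each, no error bars). The longest gap is at TP53INP1, 106 against 67.9 FPKM, and the circles of MDM2 and MDM4 nearly coincide.

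Of the feedback genes, MDM2 and MDM4 differed little, and PPM1D and FBXW7 differed more. MDM2, the ubiquitin ligase that marks p53 for destruction, was at 46.1 FPKM in the control library and 46.6 FPKM in the LSD1 siRNA library (log2 0.02), the order used for all pairs of values that follow. MDM4, its partner that binds and silences p53, was at 7.95 and 8.001 FPKM (log2 0.01). These were the smallest differences among the 33 genes for summed accessions, although the highest MDM4 accession alone gave 0.19. PPM1D, the phosphatase WIP1 that removes activating phosphates from p53, was lower, at 9.21 and 7.36 FPKM (log2 -0.29). CCNG1, a cyclin that acts with a phosphatase on MDM2, was at 146 and 137 FPKM (log2 -0.09, but 0.20 for its highest accession alone) and had the second highest control level of the 33. FBXW7, the receptor of a ubiquitin ligase for cyclin E and MYC, was at 5.94 and 7.16 FPKM (log2 0.23).

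Of the genes of cell cycle arrest, 7 of 8 lay above their control level (median log2 0.19), beside 47.4% of all genes. CDKN1A, which encodes the cyclin-dependent kinase inhibitor p21, had the highest control level of the 33 genes, at 312 FPKM, and was at 360 FPKM with LSD1 siRNA (log2 0.20). CCNG2, an unusual cyclin tied to arrest, was at 61.7 and 73.3 FPKM (log2 0.24). The antiproliferative cofactor gene BTG2 was at 45.7 and 54.3 FPKM (log2 0.24). Each of these 3 lay above its control level by well under 1.5-fold. The stress sensor genes GADD45A and GADD45B were at 33.6 and 39.9 FPKM (log2 0.24) and at 14.5 and 16.5 FPKM (log2 0.17). SERTAD1, which binds a cyclin-dependent kinase, was at 8.48 and 9.29 FPKM (log2 0.12). PLK3, a stress-responsive polo-like kinase, had the lowest control level of the 33 and was at 2.40 and 2.51 FPKM (log2 0.04). Its relative PLK2 was the single gene of this group with a lower value, at 15.9 and 13.3 FPKM (log2 -0.24).

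The cell death genes were split, with 6 higher and 6 lower, and held the largest difference of the 33 in each direction. TP53INP1, a stress protein that promotes p53 phosphorylation and autophagy, was at 106 FPKM with control and 67.9 FPKM with LSD1 siRNA, 64.0% of control (log2 -0.64). It was the third most abundant of the 33 genes in the control library. Its absolute change was larger than that of 96.4% of all genes at 1 FPKM or more. BBC3, which encodes the BH3-only killer PUMA, was at 16.9 and 23.7 FPKM (log2 0.46), the largest difference upward. ZMAT3, an RNA-binding zinc finger gene, was at 12.6 and 9.32 FPKM (log2 -0.39). TRIAP1, an inhibitor of apoptosis, was at 43.7 and 34.7 FPKM (log2 -0.32). The lower values thus include TRIAP1, which restrains death, and TP53INP1, which promotes it.

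The pore-forming death effector and the death receptors differed little. BAX, which permeabilises mitochondria, was at 51.5 and 57.4 FPKM (log2 0.15). The receptor genes FAS (6.71 and 7.28 FPKM, log2 0.10) and TNFRSF10A (12.4 and 13.3 FPKM, log2 0.10) were slightly higher. The highest FAS accession alone gave a log2 of 0.25. For the FAS form NM_152871 the authors' deposited table had p = 0.0258 and q = 0.597. The direction of that form is not given here, so its p does not speak for a rise of FAS. TNFRSF10B, the second TRAIL receptor, was at 78.8 and 77.6 FPKM (log2 -0.02, above 0 for its highest accession alone). PHLDA3, an inhibitor of Akt, was at 54.2 and 60.3 FPKM (log2 0.15), and the oxidoreductase gene TP53I3 at 8.69 and 9.39 FPKM (log2 0.10). The nuclease gene AEN was at 20.8 and 19.3 FPKM (log2 -0.11). CYFIP2, a subunit of the actin-regulating WAVE complex, was at 22.02 and 21.5 FPKM (log2 -0.03). All 8 summed values lay within 0.20 of zero on the log2 scale.

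Among repair genes, DDB2 and RRM2B differed in opposite directions. DDB2, which recognises ultraviolet damage and has the promoter match printed above, was at 22.01 and 28.6 FPKM (log2 0.36), the second largest difference upward. RRM2B, the ribonucleotide reductase subunit that supplies nucleotides for repair, was at 41.4 and 31.1 FPKM (log2 -0.40), the second largest downward. XPC, the partner of DDB2 in damage recognition, was at 31.6 and 34.6 FPKM (log2 0.13). POLH, a polymerase that copies past damage, was at 11.5 and 12.5 FPKM (log2 0.11).

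The metabolic genes showed no common direction. SESN1 and SESN2 encode sestrins, which restrain mTORC1. SESN1 was at 46.7 and 39.5 FPKM (log2 -0.24) and SESN2 at 23.4 and 24.3 FPKM (log2 0.05). FDXR, a mitochondrial electron transfer enzyme gene, was at 21.5 and 25.1 FPKM (log2 0.21). TIGAR, which slows glycolysis, was at 2.79 and 2.58 FPKM (log2 -0.08). The 6 genes with a promoter match (DDB2, FAS, MDM2, AEN, SESN1 and FDXR) thus ranged from -0.24 to 0.36 on the log2 scale, with 4 higher and 2 lower.

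Transcript forms were then compared for the 11 genes with at least 2 accessions at 1 FPKM or more. Shares of forms are estimates of the authors' program, since forms of a gene share exons. The lower value of RRM2B lay in NM_015713, which was at 33.4 and 21.3 FPKM (log2 -0.62), with p = 0.0181 and q = 0.506 in the authors' deposited table. Its other form, NM_001172477, was at 8.01 and 9.44 FPKM. NM_015713 therefore made up 80.6% of RRM2B with control and 68.5% with LSD1 siRNA, the largest shift of share among the 11 genes. The higher value of BBC3 lay mainly in NM_001127241, at 11.5 and 17.5 FPKM (log2 0.57), with p = 0.0468 and q = 0.768 in the authors' deposited table, while NM_014417 was at 5.44 and 5.92 FPKM. The forms of CCNG1 went opposite ways, NM_004060 at 67.7 and 77.8 FPKM and NM_199246 at 78.0 and 59.2 FPKM, and the share of NM_004060 went from 46.5% to 56.8%. For CDKN1A the main form NM_000389 was at 296 and 332 FPKM, and the minor form NM_001220778 at 12.9 and 22.9 FPKM (log2 0.78). That minor form had p = 0.955 and q = 0.99998 in the authors' deposited table. Both forms of TP53INP1 were lower, NM_001135733 at 55.2 and 32.7 FPKM (log2 -0.74) and NM_033285 at 50.8 and 35.2 FPKM (log2 -0.52). In the authors' deposited table these forms had p = 0.0963 and p = 0.103, each with q = 0.99998. Both forms of ZMAT3 were lower as well. Across the 11 genes, 4 had a form whose share differed by 5 percentage points or more, and the same count over all genes was not made.

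**Figure D2:**
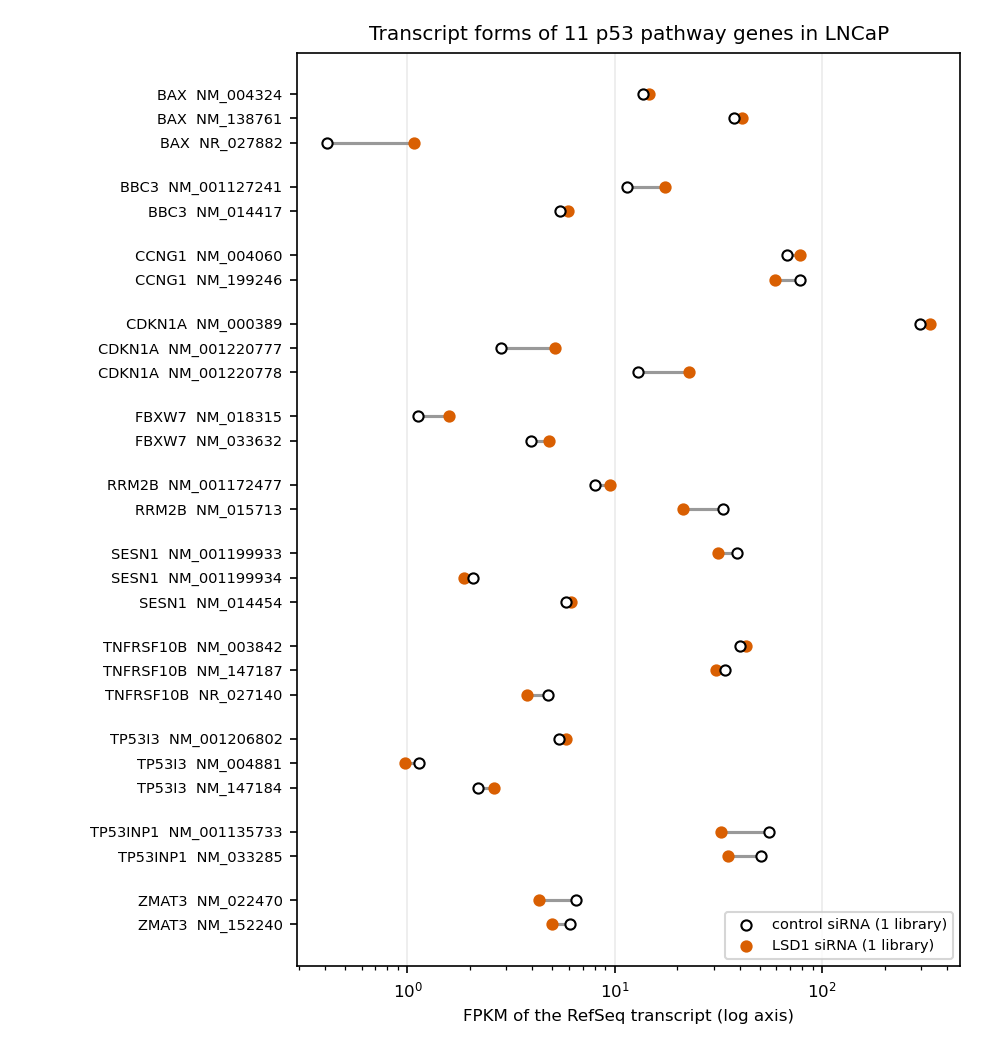
FPKM of each RefSeq transcript at 1 FPKM or more, on a log axis, for the 11 p53 pathway genes with several such forms, with open circles for control and filled circles for LSD1 siRNA (1 library each). RRM2B and CCNG1 each have forms that point in opposite directions, and both TP53INP1 forms point down.

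Further genes of the pathway were taken from 3 other lists. Of 31 measured p53 regulators and partners, 14 were higher and 17 lower (median log2 -0.01), and none passed 1.5-fold. The lowest were TRIM24, a ubiquitin ligase for p53 (16.6 and 11.6 FPKM, log2 -0.49), the damage kinase gene ATR (8.02 and 5.89 FPKM, log2 -0.39) and the checkpoint kinase gene CHEK2 (7.18 and 5.33 FPKM, log2 -0.37). The highest were SETD7, a methyltransferase that acts on p53 (36.5 and 46.1 FPKM, log2 0.33), CHEK1 (log2 0.24) and DAXX (log2 0.24).

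Of 43 further p53-induced genes, 29 were higher and 14 lower (median log2 0.08), beside 47.4% of all genes higher. Past 1.5-fold upward were 3, beside 1.91% of all genes, and downward none, beside 2.41%. PERP, a desmosomal gene that p53 induces, was at 53.8 and 111 FPKM (log2 1.04), SFN, the cell cycle inhibitor stratifin, at 1.17 and 2.65 FPKM (log2 0.75), and KITLG, a growth factor gene, at 0.94 and 2.01 FPKM (log2 0.63). KITLG reached 1 FPKM in the LSD1 siRNA library alone, so it was counted only through the library where it was higher. SFN lay near that minimum in the control library. With a minimum of 5 FPKM, 1 gene of this list was higher by 1.5-fold in place of 3. PERP (q = 0.00138) and KITLG (q = 0.0101) were called in the authors' deposited table, beside 0.906% of all genes, and SFN was not. The lowest of this list were STEAP3 (log2 -0.38), SCO2 (-0.33) and TRIM22 (-0.32). PERP and SFN are also known as genes of stratified epithelium. The 4 basal markers of such epithelium, KRT5 and KRT14 among them, stayed under 1 FPKM in both libraries. They summed to 0.634 FPKM with control and 0.925 FPKM with LSD1 siRNA. KRT5 was lower, and KRT14, TP63 and KRT15 were higher. A link of these values to PERP and SFN was not tested.

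Cell cycle genes that p53 lowers through p21 and the DREAM repressor complex formed the last list. Of 22 measured, 6 were higher and 16 lower (median log2 -0.09), beside 52.6% of all genes lower, and none passed 1.5-fold. Low values were those of CDC25A, a phosphatase gene that drives entry into S phase (3.24 and 2.22 FPKM, log2 -0.40), and the mitotic cyclin gene CCNB1 (15.6 and 12.4 FPKM, log2 -0.31). The highest were KIF23 (log2 0.13), CENPA (0.12) and CCNB2 (0.10).

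**Figure D3:**
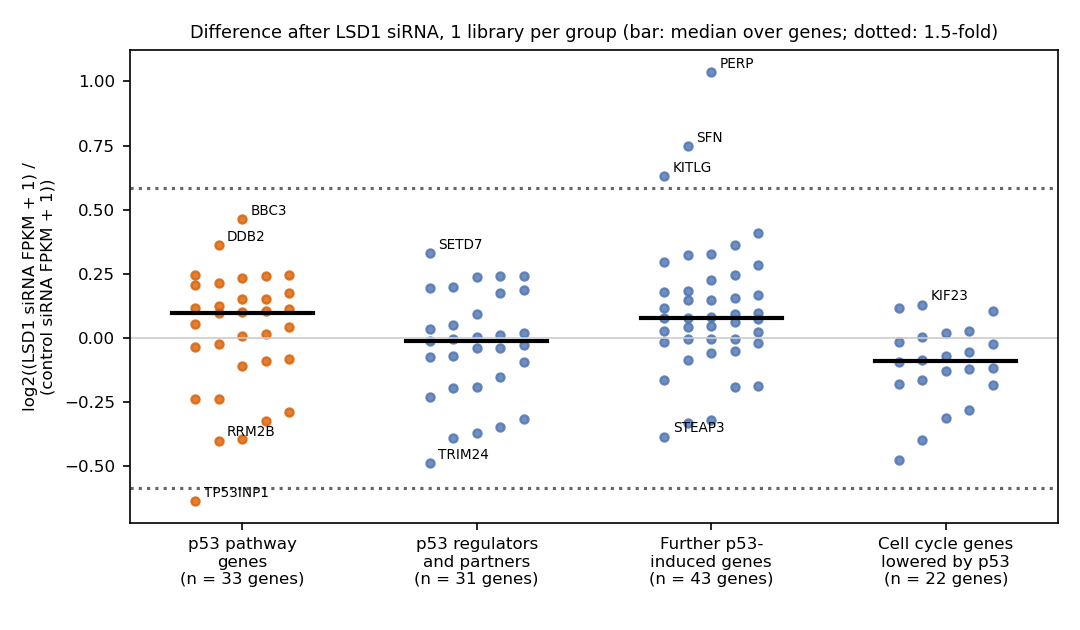
The log2 fold change of each gene (y axis, LSD1 siRNA over control siRNA on the FPKM + 1 scale) in the 33 p53 pathway genes and in 3 further lists, with a bar at the median and dotted lines at 1.5-fold. TP53INP1 is the single p53 pathway gene past the lines, and PERP, SFN and KITLG pass them among further p53-induced genes.

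Peaks were counted within 20 kb of each gene interval in hg19, the build of the deposited files. LSD1 in LNCaP had a peak near 16 of the 33 genes, 48.5% with a 95% Wilson interval of 32.5 to 64.8%, against 41.2% of all genes at 1 FPKM or more. VCaP LSD1 had one near 18 (54.5%, 38.0 to 70.2%), also against 41.2%. LNCaP H3T6ph had one near 4 (12.1%, 4.82 to 27.3%), against 17.8%. All 3 intervals, which cover counting error only, include the share over all genes. A peak of any list lay near 25 genes, beside 64.6% of all genes. The remaining 8 genes had none, and were GADD45A, SESN2, PHLDA3, DDB2, XPC, FDXR, AEN and CCNG1. DDB2, which had the second largest difference upward, is thus among the genes with no peak in any list.

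Near the 33 genes lay 21 LNCaP LSD1 peaks, 8.32 per Mb of gene interval and flanks, against 5.84 per Mb for all genes. Of these, 6 touched a gene interval, and counting the interval alone left 5 of the 33 genes (15.2%), against 26.1% of all genes. The intervals of the 33 are shorter, with a median of 23.0 kb against 31.3 kb. The median score by the authors of the 21 peaks was 60.1, against 66.6 for the complete list. Among the peaks above the list's median score, 6 genes (18.2%) kept a peak, against 23.1% of all genes. The highest-scoring was at PLK3 (chromosome 1, 45275165 to 45276490, score 108), 2.21 kb past the high-coordinate end, in an interval that PLK3 shares with DYNLT4. The next lay 10.4 kb before the low-coordinate end of CCNG2 (chromosome 4, 78067246 to 78068006, score 101).

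At the feedback genes the lists differed. MDM2 (chromosome 12, 69201971 to 69239320) had an LNCaP LSD1 peak across its low-coordinate end, at 69201018 to 69202031 (score 70.2), which reached 61 bases into the gene. An LNCaP H3T6ph peak lay 3.41 kb before the same end, at 69197904 to 69198560 (score 71.1), and no VCaP LSD1 peak lay within 20 kb. MDM4 (chromosome 1, 204485507 to 204527248) had a VCaP LSD1 peak across its low-coordinate end, at 204485020 to 204485799. Both lines shared a further LSD1 site about 9 kb before it, at 204475022 to 204475999 in LNCaP. PPM1D had an H3T6ph peak alone, 10.9 kb past its high-coordinate end, and FBXW7 an LNCaP LSD1 peak alone, inside its long interval.

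CDKN1A (chromosome 6, 36644237 to 36655116), the most abundant of the 33 RNAs, had no LSD1 peak within 20 kb in either line. It held an H3T6ph peak inside the gene interval, at 36647021 to 36647689 (score 53.2). BBC3, with the largest difference upward, had no LNCaP peak of LSD1 or H3T6ph within 20 kb, and a VCaP LSD1 peak 10.9 kb past its high-coordinate end (score 91.5).

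TP53INP1 (chromosome 8, 95938200 to 95961615) had more LNCaP LSD1 peaks nearby than any other of the 33 genes, with 3. How many of all genes have as many was not counted. All 3 scored under the median of the complete list, 66.6. One lay inside the gene at 95940059 to 95940802 (score 60.1), one 1.70 kb past the high-coordinate end at 95963310 to 95964328 (score 56.3) and one 18.5 kb past it at 95980144 to 95981070 (score 57.1). The first and the third overlapped VCaP LSD1 peaks. RRM2B, also on chromosome 8, had an LNCaP LSD1 peak at 103251462 to 103252317 (score 51.2), 116 bases past its high-coordinate end. A VCaP LSD1 peak at 103250331 to 103252536 covered both that peak and the end of the gene. LSD1 peaks of both lines lay near 11 of the 33 genes, of which 6 had a higher and 5 a lower RNA value (median log2 0.01). How many of all genes have peaks of both lines was not counted, so 11 cannot be called many or few.

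Sites shared by the LSD1 lists of both lines, with at least 1 base in common, lay near 7 of the 33 genes (21.2%, 10.7 to 37.8%), against 8.26% of all genes. These were MDM4, TP53INP1, RRM2B, POLH, BTG2, CYFIP2 and SERTAD1. No site was shared by LNCaP LSD1 and H3T6ph near any of the 33, and the share over all genes was not counted. POLH had peaks of all 3 lists, and a VCaP LSD1 peak and an H3T6ph peak overlapped there 6.49 kb past its high-coordinate end. POLH shares its interval with GTPBP2, so these peaks cannot be assigned to 1 of the pair. Within 1 kb of an end of the gene interval, VCaP LSD1 had a peak at 11 genes (33.3%, 19.8 to 50.4%), against 13.9% of all genes. LNCaP LSD1 had one at 5 genes (15.2%, 6.65 to 30.9%), against 8.68%, and H3T6ph at 1, POLH, against 2.30%. The 11 genes with VCaP LSD1 at an interval end were MDM4, FAS, TNFRSF10A, TNFRSF10B, GADD45B, RRM2B, POLH, TIGAR, CCNG2, TP53I3 and TRIAP1. Like POLH, FAS shares its interval with other genes (ACTA2 and FAS-AS1), and so does TNFRSF10B (RHOBTB2 and TNFRSF10B-AS1). An end of such an interval may belong to another gene, so a peak there cannot be placed at an end of FAS, TNFRSF10B or POLH. The 1 kb distance was chosen after the peaks had been seen.

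**Figure D4:**
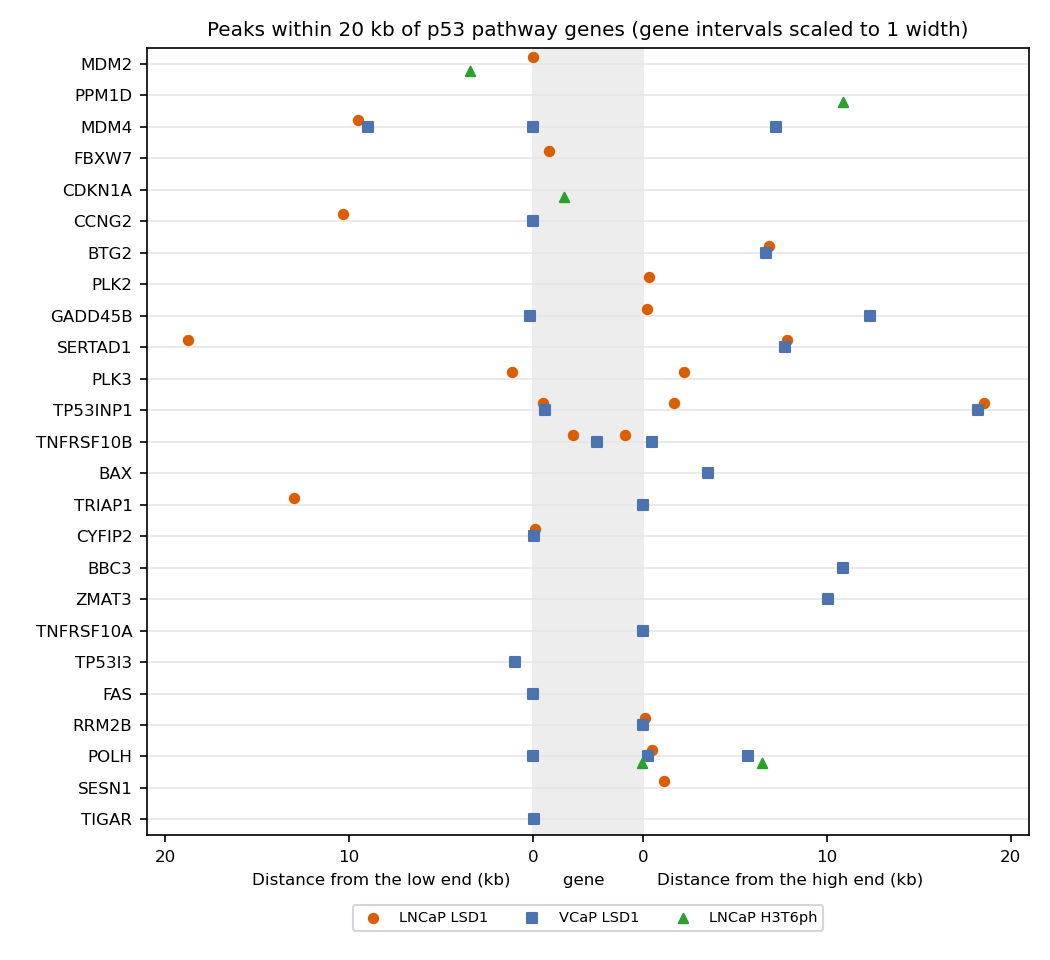
Distance in kb of each peak within 20 kb of a p53 pathway gene from the low-coordinate or high-coordinate end of the gene interval (grey band, scaled to 1 width for every gene), for the 25 genes with a peak. VCaP LSD1 peaks (squares) sit at an end of the gene interval for 11 genes, some of which share that interval with other genes, and H3T6ph peaks (triangles) are at 4 genes.

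Binding and expression were set side by side in LNCaP. In the 16 genes near an LNCaP LSD1 peak the median log2 difference was 0.01 (from -0.64 to 0.24), with 9 higher and 7 lower. The 17 without one had a median of 0.10 (from -0.39 to 0.46), with 12 higher and 5 lower. Over all genes the medians with and without a peak were both -0.01. The ranges overlapped, and with 1 library a group the difference between the medians was not tested. The 8 genes with no peak in any list had a median of 0.14, with 6 higher and 2 lower. The 4 genes near H3T6ph (MDM2, CDKN1A, POLH and PPM1D) ran from -0.29 to 0.20.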

How the data were processed

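Per the file headers, the authors deposited RNA levels as FPKM for every RefSeq accession in both libraries, and beside them a p-value and a q-value of their own test. Alignment, peak and expression tools listed in the submitters' processing notes are Bowtie2 2.0.0 and TopHat2 2.0.4, MACS2, and Cuffdiff 2.0.1, on hg19. Each ChIP sample has its own deposited peak list, in which the authors score the peaks on an unstated scale, used here for ranking inside that list. No source used here gives the ChIP control, the annotation version or the library scaling. A symbol was found for 38934 of 40253 accessions (96.7%) in the RefSeq table of GRCh38.p14. FPKM was summed per symbol, leaving out 42 genes with a failed accession, none of them among the 33. The background held every gene reaching 1 FPKM in a library, and the pseudocount was 1. The TruSeq RNA kit v2 keeps no strand, so antisense partners share reads, and 7 of the 33 genes share their table interval with another symbol. Depth was estimated from intronless olfactory receptor genes. Taking 204 bases off each length put the values nearest to whole fragments, and all 41 and 44 of these genes with a value then lay within 0.05 of a whole number. Depth is unknown for the peak lists. The members and lists were chosen with earlier results of these data known. The rule for names covered all 33 genes, KDM1A, and from each other list the genes past 1.5-fold or called by the authors and the 3 largest changes in each direction. Some results that this rule takes in are left out of the text. Marker genes named were those listed at 0, LYZ and the 4 basal markers, chosen after their values were seen. Alternatives varied the pseudocount, the minimum, scaling, accession choice, peak distance, score and overlap. Python 3.11.15 with pandas 2.3.3 was used, and the scripts were tested on simulated data.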

Additional observations from a re-analysis of the deposited data

How the results depend on the processing

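No paired analysis was possible because each group holds 1 sample. Of 99 recomputed log2 fold changes of single p53 pathway genes (pseudocount 0.1, centring on the median of protein-coding genes, or the accession with the highest mean alone), 98 moved by less than 0.23, the SD across protein-coding genes, used as the tolerance because there is no replicate spread. The exception was CCNG1, at 0.20 with its highest accession alone, which reverses its sign, as it does for TNFRSF10B. No sign differed under the other 2 settings. With the highest accession 2 genes in place of 1 were lower by 1.5-fold. With a minimum of 5 FPKM, 1 further p53-induced gene was higher by 1.5-fold in place of 3, and 9 of the p53-lowered cell cycle genes were lower and 3 higher, since fewer genes were tested. With a pseudocount of 0.1, 1 of these cell cycle genes was lower by 1.5-fold in place of none. Peak counts moved with the distance by construction. The gene interval alone left 5 genes for LNCaP LSD1, 11 for VCaP LSD1 and 2 for H3T6ph, beside 26.1%, 26.1% and 10.9% of all genes. The peaks above each list's median score left 6, 10 and 2, beside 23.1%, 25.4% and 9.61%, and a 50 kb window gave 9 for H3T6ph, beside 26.9%. When an overlap had to cover 50% or more of both peaks, 0 genes in place of 1 had a site shared by VCaP LSD1 and H3T6ph. Added after seeing the data, promoter matches with up to 2 or 4 mismatches gave 4 and 8 genes, beside 0.359% and 4.92% of all genes. With up to 13 bases between the 10-base units they gave 9 of 27 (33.3%), beside 15.3% of all genes, a smaller contrast than 22.2% against 1.37%. Without the 7 genes that share an interval, the peak counts were 11, 13 and 3 of 26. Without TP53INP1 the median log2 fold change of the others was 0.10. With 1 library a group, none of these ranges covers biological or technical variation.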
